A study of Mus musculus with 4 samples.

Results

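Small-subunit (SSU) processome and snoRNP proteins are the factors that build the small, 40S, subunit of the ribosome, and the proteins of the particles that guide modification of its RNA. The 43 named genes encode core proteins of C/D and H/ACA small nucleolar ribonucleoproteins (snoRNPs), subunits of the processome and factors that mature the late 40S precursor. The genes were taken by symbol from a table of 47935 loci. All but 1 were found under their current symbol, and Utp4 stood under its older symbol Cirh1a. Nop56, Nop58 and Mphosph10 lay in rows that carried several symbols and were left out of counts and medians, so that 40 genes with a row of their own remained. All 43 passed the filter of at least 1 FPKM in at least 2 of the 4 samples, and none was listed at 0 in any sample.

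In the nucleolus, RNA polymerase I makes a long precursor of ribosomal RNA. The processome assembles on the 5′ end of that precursor while it is still being made, with the U3 snoRNP base-pairing to it, and the small-subunit RNA is folded, modified and cut free there. C/D snoRNPs guide methylation of ribose and H/ACA snoRNPs guide the change of uridine to pseudouridine. Red cell precursors make many ribosomes while they grow and lose their nucleoli as they mature.

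The samples were MEL cells, a mouse erythroleukemia cell line, in 2 groups: cells with 1.5% DMSO in the medium, which induces erythroid-like differentiation (DMSO-induced, 2 samples), and cells without it (uninduced, 2 samples). Total RNA depleted of ribosomal RNA was sequenced, and each level is an FPKM value (fragments on a transcript relative to its length and to library size). Protein was not measured, and where a protein or factor is said to fall, its transcript is meant. The comparison asked which transcripts differ after differentiation is induced. How long the cells were kept in DMSO is not stated in the labels. A cell line carries the lesions of the leukemia it came from, and its induced state is only erythroid-like. The labels did not say whether the 2 samples of a group were separate cultures. Every p-value sets the group difference against the spread within groups, moderated over all loci tested. That spread may be technical.

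Summed FPKM was between 1055861 and 1325806 per sample. Read depth was not given; relative to the deepest sample, uninduced 2, it was estimated at 0.68 and 0.75 in the induced samples and 0.925 in uninduced 1. All 10 erythroid marker genes checked were above 0 in every sample, although Slc4a1 had only 0.49 and 0.56 FPKM in uninduced cells. Of the 10, 8 were called higher in induced cells. Their summed level was 59341 and 112904 FPKM in the induced samples, against 1470 and 1762 FPKM in the uninduced samples. Most of the induced sums came from Hba-a1 (40300.5 and 67689 FPKM) and Hbb-bs (15799.8 and 39766.6 FPKM). Of 11 marker genes of other blood and stromal cells with a row of their own, 10 stayed under 1 FPKM in every sample. Of these, 3 were at 0 throughout. The exception was Pf4, a platelet chemokine of megakaryocytes, at 106 and 138 FPKM in induced and 198 and 329 FPKM in uninduced cells. Itga2b, the other megakaryocyte marker of the list, lay in a row with several symbols and was left out. The part of Pf4 in the results below was not tested.

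DMSO-induced cells had lower levels of most processome and snoRNP transcripts. Of the 40 genes, 32 fell, none rose and 8 did not pass; the threshold was an adjusted p of 0.05 (Benjamini-Hochberg) from limma on all 12890 loci tested. The background was 14.7% of those loci called lower and 11.5% called higher; among loci with a mean of at least 5 FPKM, 15.5% were called lower. The median change of the 40 was -1.28 on the log2(FPKM + 1) scale, beside 0.03 over all loci tested. Calls of at least a 2-fold fall were made for 28 of the 40, against 11.8% of all loci. Both induced values lay below both uninduced values for 37 of the 40, against 34.7% of all loci. At an unadjusted limma p under 0.05, 36 were lower and again 0 higher. The share of all loci at that unadjusted threshold was not counted, so this count has no background beside it. In bulk RNA, fewer cells of a type and less RNA per cell cannot be told apart, and FPKM is relative to each library's total. Leaving out induced replicate 1 left 8 of the 40 called (Fbl, Rrp9, Gar1, Utp4, Pwp2, Imp4, Tsr1 and Nob1), and leaving out induced replicate 2, uninduced replicate 1 or uninduced replicate 2 left 0, with limma on 3 samples and the lone sample assumed to vary like the others. The median change in those fits ran from -1.45 to -1.13. When the filter was applied anew to the 3 samples left, limma called 15, 2, 24 and 33 of the 40 in the same order. Without a filter on low loci, limma called 0 of the 40 and 133 of all loci lower, with the median of the 40 still at -1.28. Other scalings tried were quantile, median-of-ratios and reduced-sum scaling, in which library totals leave out globins and the 10 top loci. They called 30, 33 and 25 of the 40 lower. Of all loci they called 1692, 1970 and 1511 lower, against 1899 in the fit reported.

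Across samples the median level of the 40 genes was 20.3 and 14.7 FPKM in the induced samples, against 54.2 and 39.0 FPKM in the uninduced samples. Their summed level was 1077 and 873 FPKM in the induced and 2722 and 2405 FPKM in the uninduced samples. The set thus spanned a wide range of levels, with Utp20 the lowest in induced 2 at 0.92 FPKM and Nhp2 the highest in uninduced 1 at 308 FPKM. The order of the genes was largely kept between states: the Spearman correlation of induced with uninduced mean level over the 40 genes was 0.82, a description over genes of the same 4 libraries. The size of the change had little relation to a gene's mean level over the 4 samples (Spearman -0.12 over the same 40 genes).

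**Figure D1:**
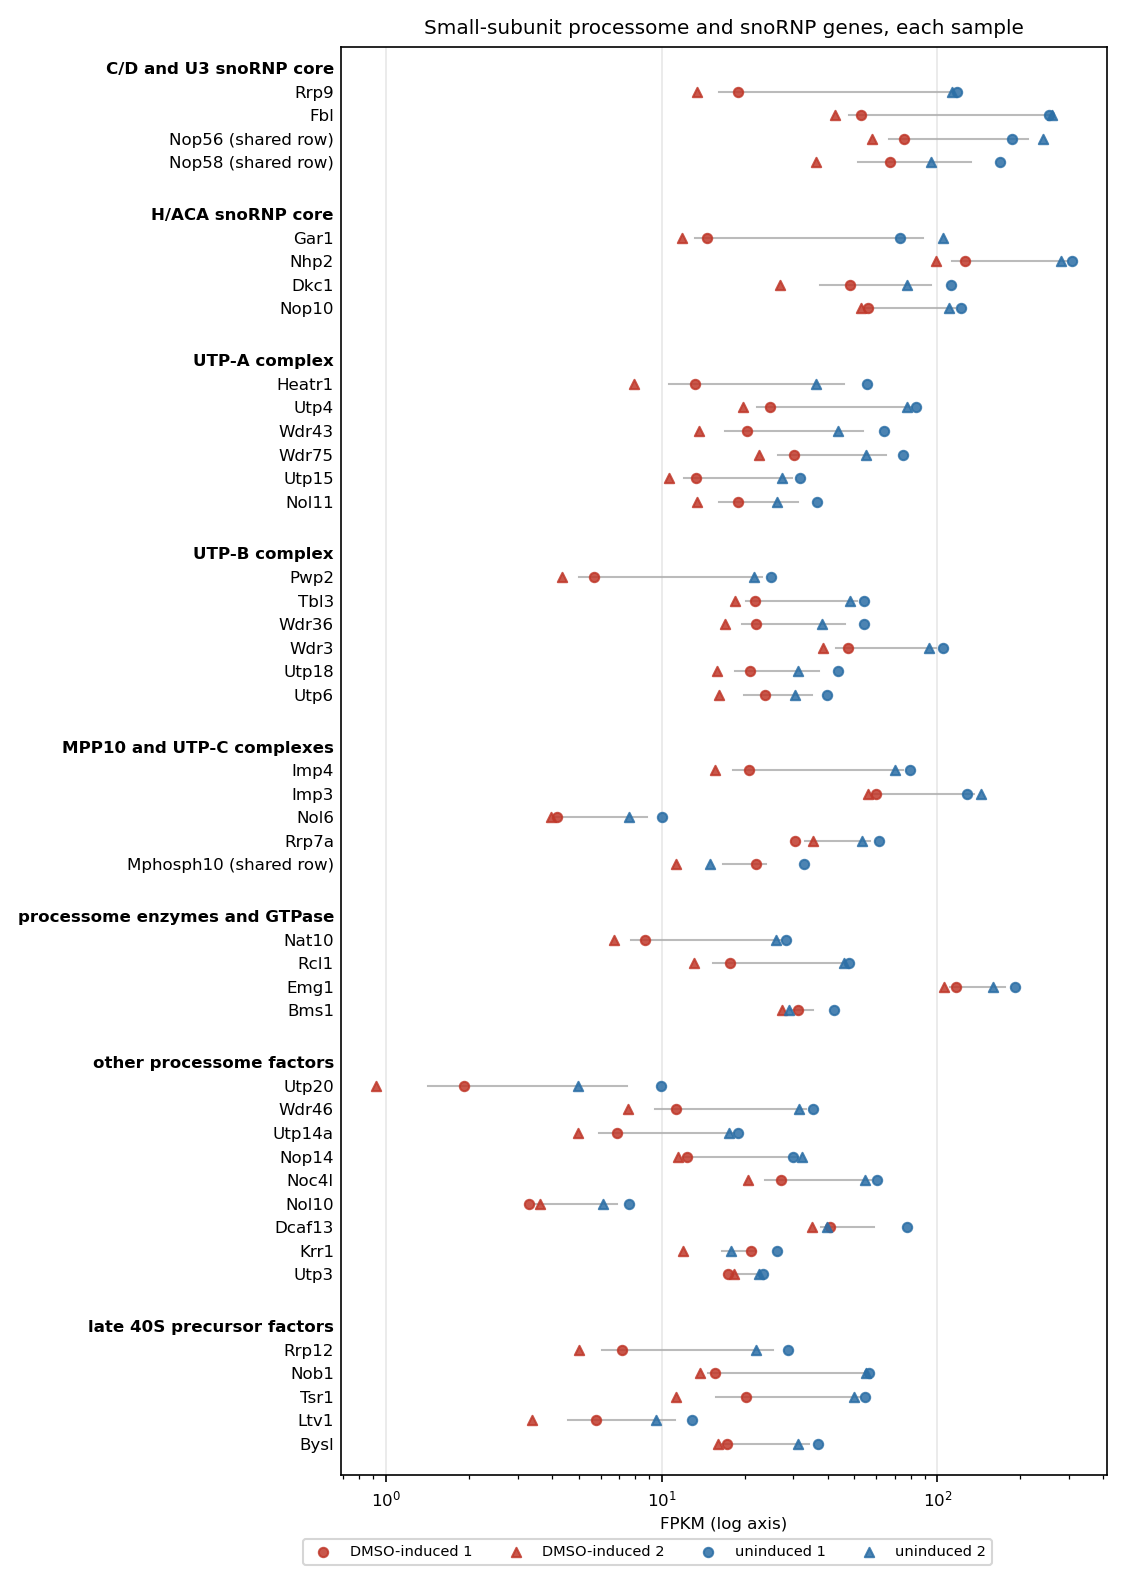
FPKM (log axis) of the 43 genes in each of the 4 samples, by role group, with DMSO-induced samples in red and uninduced samples in blue, circles for replicate 1, triangles for replicate 2, and a grey line between the group means. Red and blue symbols are separate for 37 of the 40 genes with their own row, and cross for Bms1, Dcaf13 and Krr1.

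Both core proteins of C/D snoRNPs and of the U3 particle with a row of their own fell. Rrp9, a protein particular to the U3 snoRNP (chromosome 9, 106475963 to 106485424; GRCm38, as all positions here, from GENCODE M21), had 18.9 and 13.5 FPKM in induced cells, against 118 and 113 FPKM in uninduced cells. The induced level was 14.0% of the uninduced one, a log2 change of -2.78 ± 0.23 (limma SE, n = 2 per group; adjusted p = 0.00871). Fbl, fibrillarin, is the methyltransferase of C/D snoRNPs (chromosome 7, 28169710 to 28179269). It had 52.8 and 42.4 FPKM in induced cells, against 254 and 261 FPKM in uninduced cells, with a log2 change of -2.42 ± 0.20 (limma adjusted p = 0.00906). For both genes the replicates lay much closer together than the groups.

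Nop56 and Nop58, the paired scaffold proteins of the C/D particle, were read from rows shared with annotated snoRNA genes (Snord57 among them, for Nop56). The Nop56 row had 75.9 and 58.1 FPKM in induced cells, against 186 and 241 FPKM in uninduced cells, and was called lower (-1.66 ± 0.25, limma adjusted p = 0.0167). The Nop58 row had 67.3 and 36.2 FPKM in induced cells, against 169 and 94.5 FPKM in uninduced cells, and was not past the threshold (-1.34 ± 0.42, limma adjusted p = 0.0712). Each row's groups were separate, and how much of either value is snoRNA was not tested.

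Transcripts of all 4 core proteins of H/ACA snoRNPs fell, by unequal amounts. Gar1, a glycine- and arginine-rich protein that binds the pseudouridine synthase (chromosome 3, 129824912 to 129831396), had 14.6 and 11.9 FPKM in induced cells, against 73.2 and 105 FPKM in uninduced cells. Its level in induced cells was 14.9% of that in uninduced cells (log2 change -2.64 ± 0.25, limma adjusted p = 0.0106). Nhp2, an RNA-binding subunit (chromosome 11, 51619735 to 51623714), had 126 and 99.2 FPKM in induced cells, against 308 and 281 FPKM in uninduced cells. Its mean over the 4 samples was the highest of all members, while Emg1 was higher in induced 2 (106 FPKM). Nop10, the smallest core protein (chromosome 2, 112261926 to 112263269), had 55.8 and 53.0 FPKM in induced cells, against 121 and 110 FPKM in uninduced cells (-1.07 ± 0.18, limma adjusted p = 0.0203). Dkc1, dyskerin, is the pseudouridine synthase itself and also a telomerase component. It had 48.0 and 26.9 FPKM in induced cells, against 112 and 77.3 FPKM in uninduced cells. The groups were separate, but the replicates of each group stood well apart (-1.35 ± 0.35, limma adjusted p = 0.0474). Dkc1 missed the threshold under quantile scaling (limma adjusted p = 0.0707), under reduced-sum scaling (0.075) and with a pseudocount of 0.1 (0.0542).

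UTP-A, also called t-UTP, is the first subcomplex to bind the nascent precursor and is linked to its transcription; 5 of its 6 genes fell. Heatr1, its large HEAT-repeat protein (chromosome 13, 12395027 to 12440289), had 13.2 and 7.91 FPKM in induced cells, against 55.7 and 36.3 FPKM in uninduced cells, a log2 change of -2.03 ± 0.34 (limma adjusted p = 0.0196). Utp4, known as cirhin (chromosome 8, 106893636 to 106923088), had the highest mean of the group over the 4 samples, while Wdr75 was higher in both induced samples (30.2 and 22.6 FPKM). Utp4 had 24.8 and 19.7 FPKM in induced cells, against 83.7 and 77.6 FPKM in uninduced cells (-1.82 ± 0.21, limma adjusted p = 0.0128). Wdr43, Wdr75 and Utp15, WD-repeat subunits, were called lower with log2 changes of -1.61, -1.26 and -1.24. Nol11, the metazoan subunit of the complex (chromosome 11, 107166663 to 107189381), had 18.9 and 13.4 FPKM in induced cells, against 36.5 and 26.2 FPKM in uninduced cells. Its groups were separate, at 51.6% of the uninduced level, without passing (-0.91 ± 0.27, limma adjusted p = 0.0648).

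UTP-B joins next and holds the 5′ part of the precursor and the U3 RNA; 5 of its 6 genes fell. Pwp2 (chromosome 10, 78170909 to 78185149), a WD-repeat scaffold subunit, had 5.66 and 4.35 FPKM in induced cells, against 24.8 and 21.7 FPKM in uninduced cells. Its change was -2.02 ± 0.22 on the log2 scale (limma adjusted p = 0.0128). Wdr3 (chromosome 3, 100138180 to 100162407), the most abundant of the 6, had 47.2 and 38.5 FPKM in induced cells, against 105 and 92.9 FPKM in uninduced cells (-1.19 ± 0.21). Tbl3, Wdr36 and Utp18 were called lower, with log2 changes of -1.30, -1.20 and -0.98. Utp6 (chromosome 11, 79932321 to 79962390), a HAT-repeat subunit, had 23.7 and 16.2 FPKM in induced cells, against 39.7 and 30.3 FPKM in uninduced cells, and was not past the threshold (-0.79 ± 0.27, limma adjusted p = 0.0857). The induced samples were below the uninduced ones for all 6 genes. Under reduced-sum scaling, Wdr36 (limma adjusted p = 0.0569) and Utp18 (0.0957) were no longer called. Utp18 also missed the threshold under quantile scaling (limma adjusted p = 0.0588) and with a pseudocount of 0.1 (0.055).

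MPP10 proteins bridge U3 and the precursor, and UTP-C is a further small complex; all 4 of their genes with a row of their own fell. Imp4, a BRIX-domain partner of MPP10 (chromosome 1, 34439851 to 34449356), had 20.7 and 15.6 FPKM in induced cells, against 79.8 and 69.9 FPKM in uninduced cells. That was 24.3% of the uninduced level (-1.99 ± 0.22, limma adjusted p = 0.0128). Imp3, the other partner (chromosome 9, 56937475 to 56938398), had 60.1 and 56.1 FPKM in induced cells, against 128 and 145 FPKM in uninduced cells (-1.21 ± 0.19). Nol6, the homolog of yeast Utp22, was called lower at -0.94. Rrp7a (chromosome 15, 83113433 to 83122801), which binds Nol6 in UTP-C, was called with the smallest change of the 4. It had 30.5 and 35.4 FPKM in induced cells, against 61.2 and 53.1 FPKM in uninduced cells (-0.78 ± 0.20, limma adjusted p = 0.0452). Nol6 (limma adjusted p = 0.0708) and Rrp7a (0.0868) missed the threshold under reduced-sum scaling, and Rrp7a also under quantile scaling (0.0661). The row that Mphosph10, the MPP10 protein itself, shares with the DNA repair nuclease Fan1 had overlapping groups. It had 22.1 and 11.3 FPKM in induced cells and 32.9 and 15.0 FPKM in uninduced cells (-0.47 ± 0.48, limma adjusted p = 0.491).

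Of the enzymes and the GTPase of the processome, 2 of 4 fell. Nat10 (chromosome 2, 103721256 to 103761270), which acetylates cytidines of small-subunit RNA and of some tRNAs, had 8.73 and 6.69 FPKM in induced cells, against 28.1 and 26.0 FPKM in uninduced cells. Its log2 change was -1.70 ± 0.22 (limma adjusted p = 0.0138), and that of Rcl1, a cyclase-like protein, was -1.56. Emg1, a methyltransferase of small-subunit RNA (chromosome 6, 124704085 to 124712178), had 117 and 106 FPKM in induced cells, against 192 and 160 FPKM in uninduced cells. It was the most abundant of the 4, with separate groups, and was not past the threshold (-0.65 ± 0.21, limma adjusted p = 0.0737). Bms1, the GTPase that binds Rcl1 (chromosome 6, 118383381 to 118419474), had the smallest change of all members. It had 31.3 and 27.3 FPKM in induced cells and 42.2 and 28.8 FPKM in uninduced cells, so that the groups overlapped (-0.25 ± 0.25, limma adjusted p = 0.485). The partners Rcl1 and Bms1 thus had different values in the same samples; that difference was not tested.

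Among 9 other processome factors, 5 fell and 4 did not pass. Utp20 (chromosome 10, 88746607 to 88826804), a very large HEAT-repeat protein, had 1.92 and 0.92 FPKM in induced cells, against 9.95 and 4.98 FPKM in uninduced cells. Its mean in induced cells was 19.0% of that in uninduced cells (-1.77 ± 0.39, limma adjusted p = 0.0323), while replicates within a group also differed widely. Wdr46, a WD-repeat protein with an annotated pseudogene copy, Utp14a, which in yeast activates a processome helicase, and the binding partners Nop14 and Noc4l were called lower, at -1.75, -1.49, -1.31 and -1.25. Dcaf13 (chromosome 15, 39112865 to 39146856), the homolog of yeast Sof1, had the highest mean of the 9 over the 4 samples, while Noc4l was higher in uninduced 2 (54.7 FPKM). Dcaf13 had 40.7 and 35.1 FPKM in induced cells and 77.6 and 39.7 FPKM in uninduced cells, with overlapping groups (-0.54 ± 0.35, limma adjusted p = 0.289). Krr1, a KH-domain RNA-binding protein, also overlapped, at 21.0 and 11.9 FPKM in induced cells and 26.1 and 17.8 FPKM in uninduced cells (-0.42 ± 0.34, limma adjusted p = 0.394). Utp3, the homolog of yeast Sas10 (chromosome 5, 88554462 to 88556090), had 17.4 and 18.3 FPKM in induced cells, against 23.3 and 22.5 FPKM in uninduced cells. Its replicates lay close together and its groups apart, at 77.7% of the uninduced level, without passing (-0.35 ± 0.18, limma adjusted p = 0.208). Nol10, the homolog of yeast Enp2, had 3.29 and 3.62 FPKM in induced cells, against 7.64 and 6.14 FPKM in uninduced cells, and stood on the far side of the threshold (-0.82 ± 0.22, limma adjusted p = 0.05). Nol10 passed under quantile scaling (limma adjusted p = 0.0417) and under median-of-ratios scaling (0.038) and with the filter at 5 FPKM (0.0469), and did not pass under reduced-sum scaling (0.0854).

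All 5 factors of the late 40S precursor fell. Nob1, the nuclease that makes the final cut at the 3′ end of the small-subunit RNA (chromosome 8, 107412486 to 107425051), had the highest mean of the 5 over the 4 samples, while Bysl was highest in the means of induced cells. Nob1 had 15.6 and 13.7 FPKM in induced cells, against 56.6 and 55.0 FPKM in uninduced cells, with replicates close together in both groups (-1.86 ± 0.19, limma adjusted p = 0.0113). Rrp12, a HEAT-repeat protein needed for export of the precursor in yeast (chromosome 19, 41862851 to 41896173), had 7.17 and 5.02 FPKM in induced cells, against 28.65 and 21.95 FPKM in uninduced cells (-1.90 ± 0.26). Tsr1, a GTPase-like factor without GTPase activity, and Ltv1, which holds ribosomal proteins of the subunit's head in yeast, were called lower at -1.72 and -1.15. Bysl, bystin (chromosome 17, 47599331 to 47611492), the homolog of yeast Enp1, had 17.3 and 16.0 FPKM in induced cells, against 37.0 and 31.2 FPKM in uninduced cells (-0.99 ± 0.20, limma adjusted p = 0.0266). For each of the 5 genes both induced samples lay below both uninduced samples. Under reduced-sum scaling, Ltv1 (limma adjusted p = 0.0791) and Bysl (0.0524) were no longer called, and Ltv1 was also lost with a pseudocount of 0.1 (0.0561).

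**Figure D2:**
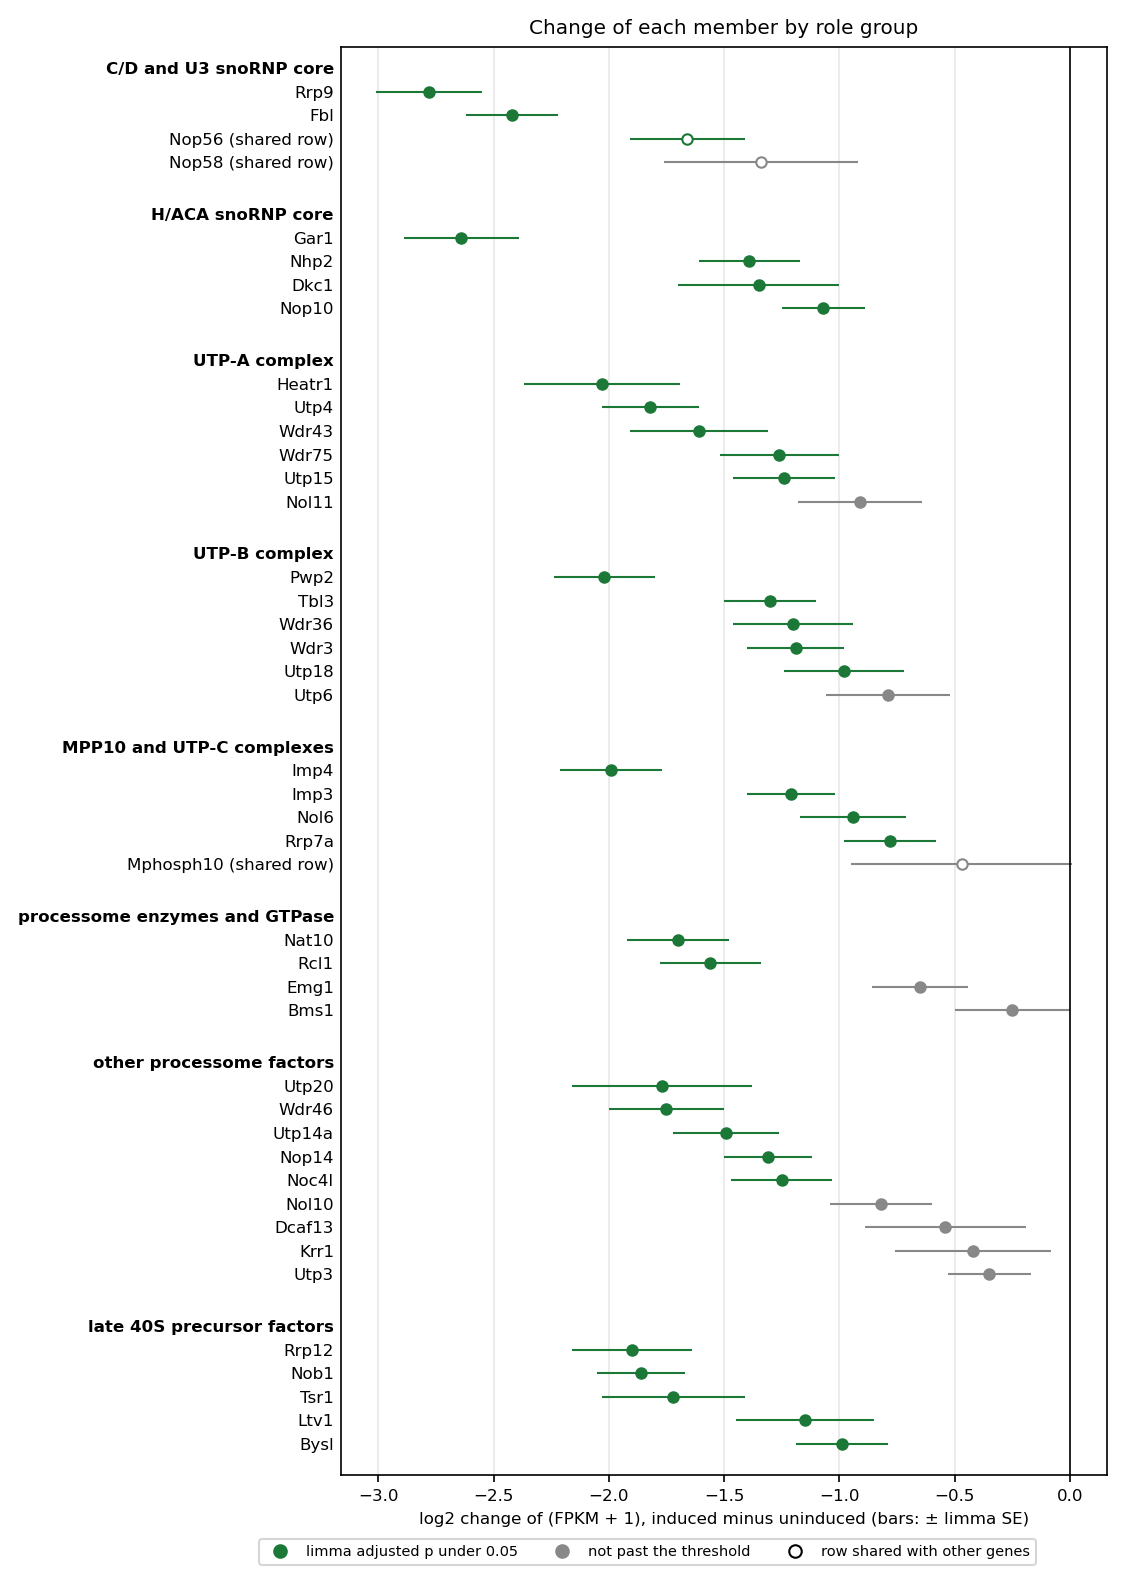
Log2 change of (FPKM + 1), induced minus uninduced, for each of the 43 genes by role group, with bars of ± limma SE (2 samples per group); green points passed an adjusted p of 0.05, grey points did not, and open points are rows shared with other genes. All points lie below 0, from -2.78 for Rrp9 to -0.25 for Bms1.

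By group, the median log2 change of genes with their own row was -2.60 for the 2 C/D and U3 proteins and -1.72 for the 5 late factors. It was -1.44 for UTP-A, -1.37 for H/ACA proteins, -1.25 for the other processome factors, -1.19 for UTP-B, -1.10 for the enzymes and the GTPase, and -1.08 for the MPP10 and UTP-C genes. Whether the groups differ was not tested. The 8 genes that did not pass were Nol11, Utp6, Bms1, Emg1, Utp3, Nol10, Dcaf13 and Krr1. Of the 32 that did, 25 were also called under each of the 3 other scalings.

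Several members share transcribed ground with other genes. Exons of 18 of the 43 genes overlap an exon of a gene on the opposite strand (such as Ccnd3, cyclin D3, for Bysl and Mpp1 for Dkc1), and strandedness of the reads was not given, so reads of the pairs cannot be told apart. Of the 17 such genes among the 40, 14 fell (median log2 change -1.31), and of the 23 others 18 fell (median -1.25). For 10 of the 43 genes, Tsr1 and Wdr3 among them, the table's locus spans more than 2 times the annotated gene. Annotated snoRNA genes lie inside Nop56, Nop58, Dkc1, Wdr43 and Tsr1: 5 of 43 members (11.6%) against 259 of 21951 protein-coding genes (1.18%) in GENCODE.

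Promoters were read from RefSeq (GRCm38.p6) as 250 bases before to 50 bases after the start site, and 36 of the 43 genes had a window. The letters CACGTG, the E-box that MYC-MAX and other basic helix-loop-helix factors bind and which reads the same on both strands, occurred in 10 of the 36 (27.8%). They occurred in 7.72% of 14731 windows of protein-coding genes with 1 window each, and in 10.9% of the 5549 of these whose gene was tested here. In 5 of the 10 (Utp4, Wdr43, Tsr1, Ltv1 and Utp20) the letters lay after the RefSeq start site. In Wdr46 the first base lay at -12 from the RefSeq start site, which is inside the gene as GENCODE M21 bounds it. In the other 4 they lay before the start site in both annotations, with the first base at -121 from the RefSeq start in Imp4, -20 in Utp18, -43 in Nol11 and -208 in Rrp7a. The 250 bases before the RefSeq start site of those 4 are given because they carry this shared feature, 5′ to 3′, with CACGTG in capitals.
Imp4, chr1:34439579-34439828, plus strand: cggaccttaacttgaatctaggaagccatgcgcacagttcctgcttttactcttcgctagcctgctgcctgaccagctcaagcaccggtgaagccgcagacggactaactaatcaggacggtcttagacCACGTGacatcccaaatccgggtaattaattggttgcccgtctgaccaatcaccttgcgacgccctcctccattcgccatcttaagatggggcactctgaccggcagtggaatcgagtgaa
Utp18, chr11:93885767-93886016, minus strand: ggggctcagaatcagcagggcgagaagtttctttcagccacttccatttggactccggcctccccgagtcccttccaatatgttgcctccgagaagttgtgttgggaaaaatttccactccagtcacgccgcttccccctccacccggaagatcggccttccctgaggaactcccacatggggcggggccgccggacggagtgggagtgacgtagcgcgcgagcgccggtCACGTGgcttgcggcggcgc
Nol11, chr11:107189382-107189631, minus strand: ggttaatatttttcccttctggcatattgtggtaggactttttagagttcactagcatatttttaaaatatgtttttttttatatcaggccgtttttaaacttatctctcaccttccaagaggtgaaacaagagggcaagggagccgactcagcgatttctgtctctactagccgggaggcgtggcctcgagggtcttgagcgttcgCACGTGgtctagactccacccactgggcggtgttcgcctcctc
Rrp7a, chr15:83122802-83123051, minus strand: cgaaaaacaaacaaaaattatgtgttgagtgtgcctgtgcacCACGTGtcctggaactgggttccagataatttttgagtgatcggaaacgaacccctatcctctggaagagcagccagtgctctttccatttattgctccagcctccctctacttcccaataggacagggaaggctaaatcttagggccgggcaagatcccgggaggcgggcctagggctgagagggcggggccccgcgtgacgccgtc

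Genes with and without the E-box both fell. Of the 10 with it, 9 fell, with a median log2 change of -1.66 and a range of -1.99 to -0.78. Of the 23 genes with a window, a row of their own and no CACGTG, 18 fell, with a median of -1.26 and a range of -2.78 to -0.25. Rrp9 and Gar1, which fell most of the genes with a window, had none in their windows. The windows of Rrp9, Heatr1 and Wdr43 lay wholly inside the genes as GENCODE M21 bounds them. Bases before those gene bounds were not searched. A match in these letters is a description of the window and was not tested as a binding site.

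Counts for other proteins of the same machinery are read beside the 14.7% of all loci called lower. Of 13 further processome proteins with a row of their own, 4 fell and none rose (median -0.61); the most changed were Pdcd11, the homolog of yeast Rrp5, with 13.8 and 11.8 FPKM in induced cells, against 38.2 and 35.6 FPKM in uninduced cells (-1.46 ± 0.19), and Aatf, a partner of Nol10 (-1.35 ± 0.18). Of 8 further factors of 40S maturation, 2 fell and none rose (median -0.52). The 2 were the RNA dimethylase Dimt1 (-1.21 ± 0.21) and Tsr2 (-0.94 ± 0.19). With so few genes, 2 of 8 is close to the share of all loci. Under quantile scaling 1 of the 8 was called higher. Of 10 factors that assemble or move snoRNPs, 4 fell and none rose (median -0.98). Nolc1, a nucleolar chaperone of snoRNPs, had 24.3 and 18.2 FPKM in induced cells, against 120 and 104 FPKM in uninduced cells (-2.36 ± 0.22), and Ruvbl2, an ATPase of the assembly machinery, changed by -1.85 ± 0.22. These lists share no gene with the 43, and whether they differ from them was not tested.

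Of the assembly factors of the large, 60S, subunit, 27 of 38 fell and none rose, with a median of -1.28; Wdr12 (-2.25 ± 0.22) and Nle1 (-2.22 ± 0.24) changed most. Among transcripts of the proteins of the 40S subunit itself, 6 lay in shared rows and were left out. The others tested had log2 changes between -0.38 and 0.58. Of 26 tested with a row of their own, limma called none, and 0 had an unadjusted p under 0.05; their median was 0.17, and between 0.13 and 0.27 under the other scalings. Ribosomal protein genes have many processed copies in the genome, so single values of that list are uncertain.

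**Figure D3:**
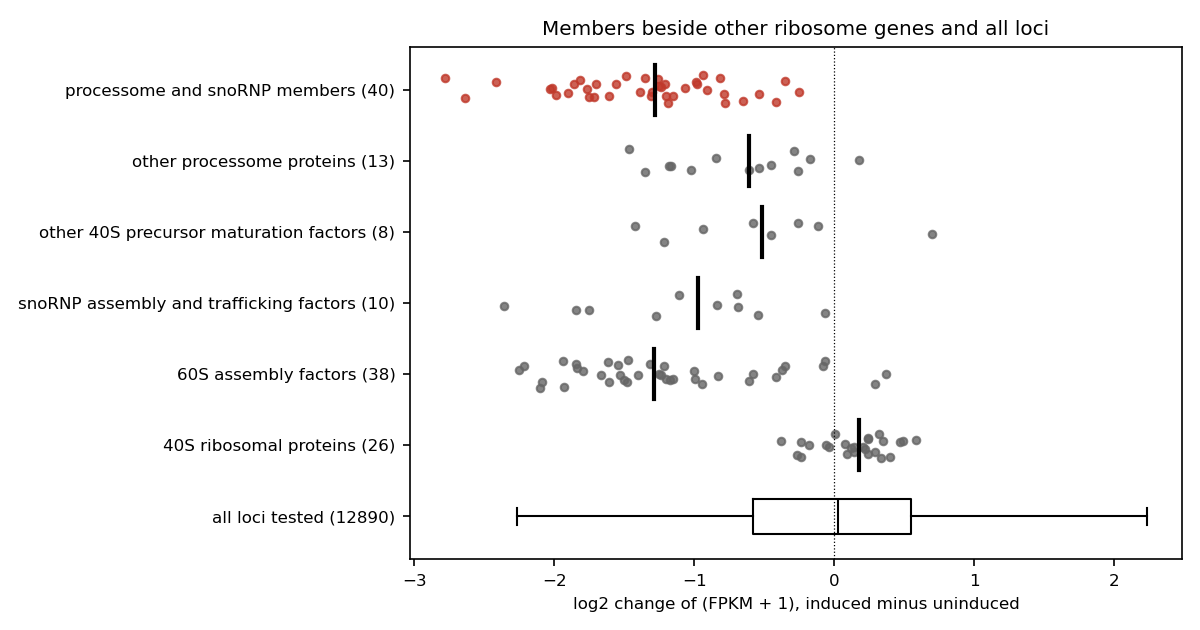
Log2 change of (FPKM + 1), induced minus uninduced, for the 40 processome and snoRNP genes (red), for 5 other lists of ribosome genes (grey) and for all 12890 loci tested (box: quartiles; whiskers to 1.5 times their range; outlying loci not drawn), with black bars at the medians. The 40 genes and the 60S assembly factors have a median of -1.28. The 40S ribosomal proteins have a median of 0.17 and run from -0.38 to 0.58.

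Within both groups, most of the 40 genes were higher in the sample numbered 1. Replicate 1 was higher than replicate 2 for 37 of the 40 genes in induced cells (92.5%, against 46.3% of all loci tested; median log2 difference 0.34). In uninduced cells it was higher for 36 of the 40 (90%, against 56.7% of all loci; median log2 difference 0.20). For Dcaf13, Krr1 and Bms1 a difference between replicates was larger than the change between the groups. Dcaf13 had a log2 difference of 0.95 between the uninduced replicates and a change of -0.54. Krr1 had 0.77 between the induced replicates and a change of -0.42, and Bms1 had 0.53 between the uninduced replicates and a change of -0.25. In both groups the sample numbered 1 also had the lower estimated depth. Its summed erythroid marker level was lower too, at 59341 against 112904 FPKM in induced and 1470 against 1762 FPKM in uninduced cells. Of those markers, only Tfrc was higher in replicate 1. The part of depth or of marker level in the replicate difference was not tested.

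**Figure D4:**
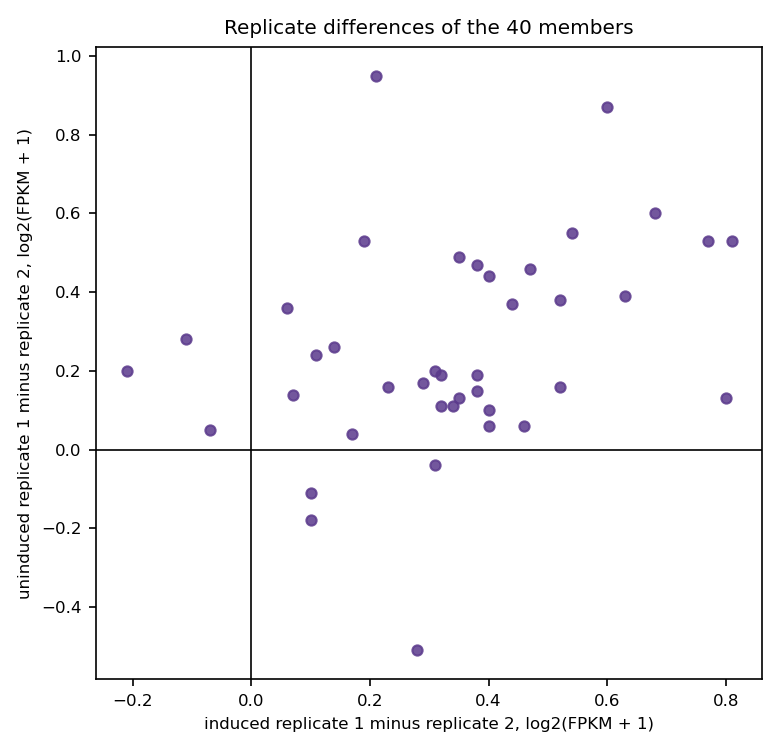
Difference of replicate 1 minus replicate 2 in log2(FPKM + 1), in induced cells (x axis) and in uninduced cells (y axis), one point per gene with its own row (40 genes). Of the points, 37 lie right of 0 and 36 above 0.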

How the data were processed

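The submitters' processing notes name TopHat2 and GRCm38; versions, quantifier, annotation, strandedness and depth are not stated there. The authors deposited FPKM values in 1 table, with 1 column for each sample. The unit was inferred from its columns, which are those of a Cufflinks tracking table, and from values that are not whole. Relative depth came from the lowest values of short single-exon genes. Whole reads could not be recovered for each locus, so no count model was used.

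Values of log2(FPKM + 1) were fitted with limma 3.58.1 in R 4.3.3 (trend, group as the only term, induced minus uninduced) for the 12890 loci at or above 1 FPKM in 2 or more samples. P-values were adjusted over all of them by the Benjamini-Hochberg method. The pseudocount understates changes of low genes. The fit was tested on simulated data. The members, lists and role groups were chosen with earlier results of these data known. In each role group the most abundant, most fallen and least changed members are given by sample, along with those that did not pass and those on shared rows. Of the other lists, the 2 called genes with the largest change are named. Tables and figures used Python 3.11.15. Alternatives were 3 other scalings, a pseudocount of 0.1, no filter, a filter at 5 FPKM, a replicate block and leaving out each sample.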

Additional observations from a re-analysis of the deposited data

How the results depend on the processing

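Read depth was not given, so the counting error of low members such as Utp20 is unknown. The number of the 40 genes called lower was 32 in the fit reported. It was 30, 33 and 25 under quantile, median-of-ratios and reduced-sum scaling, 29 with a pseudocount of 0.1 and 32 of the 39 left by a filter at 5 FPKM. None was called higher in any of these. Of all loci, 1899 were called lower in the fit reported, and 1692, 1970 and 1511 under those scalings in the same order. The count was 1715 with a pseudocount of 0.1 and 1495 with the filter at 5 FPKM. Without a filter, 0 members and 220 loci in all were called, 133 of the loci lower, against 3377 loci in the fit reported. Locus totals given here without a direction are calls in both directions together, while member counts are of genes called lower. Leaving out each sample in turn left 0 to 8 members and 14 to 486 loci called. With the filter reapplied to the 3 samples left, an alternative chosen after seeing the data, 15 members and 860 loci were called without induced replicate 1, 2 and 187 without induced replicate 2, 24 and 2685 without uninduced replicate 1, and 33 and 2231 without uninduced replicate 2. The median change stayed between -1.45 and -1.13 in all of these fits. Without uninduced replicate 1, Bms1 (0.02) and the shared row of Mphosph10 (0.08) changed sign; over the fits that leave out 1 sample their log2 changes reached -0.51 and -1.01, and neither passed the threshold with all 4 samples. Replicate numbers were shared between groups with nothing in the labels to pair them. The replicate differences of both groups correlated at 0.17 across 12890 loci, and a replicate block called 35 members lower and 4238 loci in all, adding Nol11, Utp6, Nol10 and, outside the 40, the shared row of Nop58 (limma adjusted p = 0.0157); every member called without it was called with it. The cause of these dependencies was not tested.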
